A study of Mus musculus with 4 samples.

Results

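The genes described here are 10 genes of the IL-17 axis in bleomycin-treated mouse skin, chosen by their symbols from the 24441 genes of the deposited table. They are the ligands Il17a and Il17f, the receptor chains Il17ra, Il17rc, Il17rd and Il17re, the adaptor Traf3ip2, and the epithelial targets Lcn2, Ccl20 and Csf3. All 10 were found in the table. Of these, 6 had at least 1 FPKM in at least 2 libraries and were tested, and 4 were below this limit (Il17a, Il17f, Il17rd and Csf3). FPKM is a fragment count normalised to transcript length and library depth.

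IL-17A and IL-17F are secreted by Th17 cells, gamma-delta T cells and other lymphocytes, and they act mainly on epithelial cells and fibroblasts. Both signal through a receptor made of IL-17RA and IL-17RC, whereas IL-17RE pairs with IL-17RA to bind IL-17C, a ligand made by epithelial cells themselves. The adaptor Act1, encoded by Traf3ip2, docks to the receptor and carries the signal to NF-kappa B, C/EBP factors and mRNA stability, and keratinocytes answer with chemokines, antimicrobial proteins and neutrophil growth factors.

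Both groups were female C57BL/6 mice given subcutaneous bleomycin (BLM) every other day for 28 days, a model of scleroderma in which fibrosis follows at the injected site. The age in the labels was 8 weeks. The GSDMD KO group (2 libraries) carried the GSDMD-/- genotype, a loss of both alleles of the pyroptosis executor gasdermin D, and the WT group (2 libraries) was wild type. Skin without BLM was not analysed here, so every value is from BLM-treated skin. The labels do not say whether each library came from a separate mouse or whether the groups were littermates, so the p-values measure only the spread between these libraries. The comparison asked how the expression of IL-17 pathway genes in lesional skin differed between GSDMD KO and WT mice.

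The 4 libraries differed in ways beyond genotype. Gsdmd, the targeted gene, stood at 14.0 and 18.2 FPKM (WT) against 3.53 and 2.26 FPKM (KO), where here and below the first value of a pair is replicate 1 and the second replicate 2. Both KO libraries were thus lower in the targeted gene. From the step that a single fragment makes in low genes, the depth was estimated at about 12800000 to 17400000 fragments per library. Summed keratinocyte markers were at 3891 to 5518 FPKM in WT and 7005 to 11826 FPKM in KO skin, while summed skeletal muscle markers were higher still in every library, at 27475 and 25433 FPKM (WT) against 16708 and 17950 FPKM (KO). The muscle sums of the groups did not overlap and ran opposite to the keratinocyte sums. The part of muscle in the values of the 10 genes was not tested. KO replicate 2 had the lowest level of all 15 macrophage, all 10 endothelial and all 8 adipocyte markers, and KO replicate 1 had the highest level of 14 of 15 hair follicle markers. The labels call all mice female, but 4 of 4 Y-linked genes looked at were above 0 in KO replicate 2 and at 0 in the other libraries, with the highest of them, Eif2s3y, at 1.28 FPKM. Log2 fold changes without KO replicate 2 are therefore given below for the tested genes of the 10. They are also given for the called genes of the lists around the IL-17 pathway, but not for each called cell type marker. In whole skin, fewer cells of a type and less RNA per cell cannot be told apart.

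The promoters of 4 genes are shown because their genes gave the clearest patterns across the libraries: Il17rc and Il17re, neighbours that were both higher in KO skin, Ccl20, the target that was higher, and Lcn2, the target with the widest range in FPKM. Each is the stretch of 250 bases before the transcription start, from RefSeq on GRCm38.p6, printed 5' to 3' on the strand of the gene. Capitals mark matches to the kappa B consensus or to the C/EBP-type motif TTGCNNNAA, searched on both strands.
Il17rc (chr6:113471205-113471454, plus strand): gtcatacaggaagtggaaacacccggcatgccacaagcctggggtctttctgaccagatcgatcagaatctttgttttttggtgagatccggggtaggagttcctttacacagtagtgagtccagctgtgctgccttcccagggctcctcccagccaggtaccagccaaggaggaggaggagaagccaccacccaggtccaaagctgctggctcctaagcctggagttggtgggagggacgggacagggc
Il17re (chr6:113458521-113458770, plus strand): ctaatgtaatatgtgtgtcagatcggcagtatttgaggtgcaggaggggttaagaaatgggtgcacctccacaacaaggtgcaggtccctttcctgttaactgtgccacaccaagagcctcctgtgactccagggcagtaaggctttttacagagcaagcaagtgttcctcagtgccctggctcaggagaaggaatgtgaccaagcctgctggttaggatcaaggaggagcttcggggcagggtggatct
Ccl20 (chr1:83116516-83116765, plus strand): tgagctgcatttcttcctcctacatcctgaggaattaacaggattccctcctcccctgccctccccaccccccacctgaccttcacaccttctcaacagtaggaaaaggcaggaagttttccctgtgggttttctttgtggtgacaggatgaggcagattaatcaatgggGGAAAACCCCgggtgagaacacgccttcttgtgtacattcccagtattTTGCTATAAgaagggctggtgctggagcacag
Lcn2 (chr2:32387740-32387989, minus strand): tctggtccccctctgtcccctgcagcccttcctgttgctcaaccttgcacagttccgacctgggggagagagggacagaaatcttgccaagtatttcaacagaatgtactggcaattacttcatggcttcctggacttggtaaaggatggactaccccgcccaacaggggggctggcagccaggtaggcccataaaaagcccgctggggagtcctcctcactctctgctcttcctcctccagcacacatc
The Ccl20 promoter held 1 match to the kappa B consensus, 80 to 71 bases before the start, and 1 match to the C/EBP-type motif, 32 to 24 bases before the start. The second match shares its last letters with TATAA, the core of a TATA box, and the matches do not overlap each other. Of all 32841 promoters of this length in the RefSeq table, 7.25% held the kappa B consensus and 8.29% the C/EBP-type motif. Promoters of 7 of the 10 genes were in the table, and besides Ccl20 only that of Il17f had a match, to the C/EBP-type motif at 33 to 25 bases before the start. The printed promoters of Il17rc, Il17re and Lcn2 do not hold these letters. Il17ra, Traf3ip2 and Csf3 were not matched.

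The ligands Il17a and Il17f were at the detection limit in whole skin of both groups. Il17a, on chromosome 1 of mm9 from 20720986 to 20724577 with 3 exons, was listed at 0 FPKM in both WT libraries and KO replicate 1. KO replicate 2 showed 0.0782 FPKM, or about 1.17 fragments. Its floor, the level that 3 fragments would give, was 0.147 to 0.201 FPKM across the libraries, so Il17a could not be told from 0 in any of them. Il17f lies 42652 bases beyond Il17a on the opposite strand, from 20767230 to 20774351. Its levels were 0.114 and 0 FPKM (WT) against 0.144 and 0.0779 FPKM (KO), or about 2.33 fragments at most. The groups overlapped for both ligands, and a difference in either was not detectable at this depth.

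Other ligands and the receptor chain IL-17RB were also low: none of Il17b, Il17c, Il17d, Il25 and Il17rb passed the limit on low values. Il17c, the epithelial ligand of IL-17RE, had 0.115 and 0.263 FPKM in WT skin and was listed at 0 FPKM in both KO libraries. Il17rb, the chain that binds IL-25, had 0.375 and 0.421 FPKM (WT) against 0.808 and 2.85 FPKM (KO), so KO replicate 2 alone was above 1 FPKM. None of the 5 was tested, and Il17c and Il25 were at most 0.263 and 0.266 FPKM.

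Among the receptor chains, Il17rc and its neighbour Il17re were higher in KO skin at an unadjusted p under 0.05, whereas Il17ra, the partner of both, was not. Il17rc, on chromosome 6 of mm9 from 113421449 to 113433157 with 17 exons, encodes the chain that completes the IL-17A and IL-17F receptor. It stood at 26.0 and 21.5 FPKM (WT) against 49.0 and 50.3 FPKM (KO). Both KO libraries lay above both WT libraries, and the gap between the groups was larger than the spread within either, with means of 23.7 ± 3.13 FPKM (SD, n = 2) in WT and 49.6 ± 0.921 FPKM (SD, n = 2) in KO skin. The log2(FPKM + 1) scale used here compresses differences between low values, and on it the log2 fold change of Il17rc was 1.04 (standard error, SE, 0.23, 95% confidence interval 0.44 to 1.64, unadjusted p = 0.00655 and adjusted p = 0.248 by limma).

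Il17re ends 703 bases before Il17rc begins, on the same strand of chromosome 6, from 113408478 to 113420745, with 15 exons. Its product is the chain that binds IL-17C on epithelial cells. It had 2.95 and 3.81 FPKM (WT) against 6.39 and 9.38 FPKM (KO), with no overlap and the higher value in KO replicate 2. Its log2 fold change was 1.01 (standard error 0.29, 95% confidence interval 0.26 to 1.75, unadjusted p = 0.0174 and adjusted p = 0.248 by limma). Without KO replicate 2 the log2 fold change was 0.76 for Il17re and 1.02 for Il17rc.

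Il17ra, on chromosome 6 from 120413215 to 120433745 with 13 exons, encodes the chain common to the IL-17 receptors. It had 6.69 and 10.5 FPKM (WT) against 6.82 and 5.08 FPKM (KO), so KO replicate 1 lay between the WT libraries. The log2 fold change of Il17ra was -0.45 (standard error 0.31, 95% confidence interval -1.24 to 0.35, adjusted p = 0.467 by limma), an interval that covers both directions. Without KO replicate 2 it was -0.26. The ratios of Il17rc and Il17re to Il17ra also separated the groups. Both genes already did so on their own, so these ratios carry that separation over and are not a further result. They are ratios in whole skin, not within a cell type. The ratio of Il17rc to Il17ra, both per length, was 3.88 and 2.06 in WT and 7.18 and 9.89 in KO skin, and that of Il17re to Il17ra was 0.441 and 0.364 in WT and 0.937 and 1.84 in KO skin. Both ratios were higher in both KO libraries than in either WT library (exact two-sided permutation test, p = 0.333 for each, the smallest that 2 libraries per group can give). The ratio of Il17rc to Il17re, in contrast, overlapped, at 8.80 and 5.65 in WT and 7.66 and 5.36 in KO skin.

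Il17rd, which encodes a chain that restrains IL-17 signalling and is also known as Sef, lies on chromosome 14 from 27852187 to 27920472. It had 0.650 and 0.475 FPKM (WT) against 1.11 and 0.458 FPKM (KO). KO replicate 1 was the highest and KO replicate 2 the lowest of the 4 libraries, so the groups overlapped and no test was made across all genes.

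**Figure D1:**
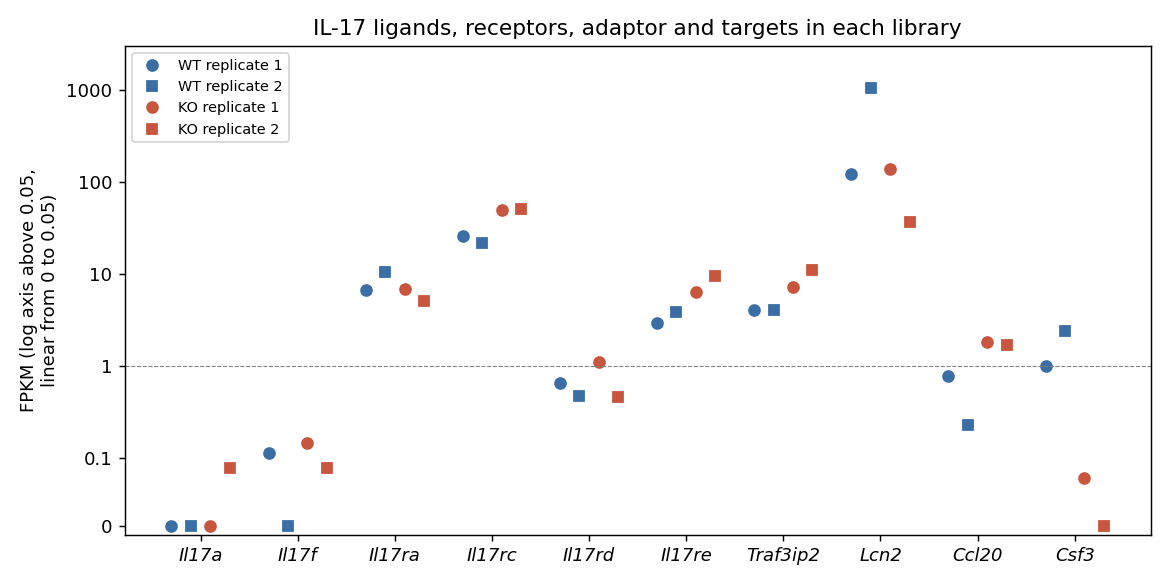
Expression of the 10 genes in each library; the vertical axis is FPKM (logarithmic above 0.05 and linear from 0 to 0.05), WT libraries are blue and KO libraries red, with circles for replicate 1 and squares for replicate 2, and the dashed line marks 1 FPKM. Il17a and Il17f lie near 0, both KO points lie above both WT points for Il17rc, Il17re, Traf3ip2 and Ccl20, and Lcn2 in WT replicate 2 stands at 1058 FPKM.

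The adaptor Traf3ip2 had the same direction as Il17rc and Il17re. It lies on chromosome 10 from 39332740 to 39375113 with 9 exons, and it had 4.04 and 4.07 FPKM (WT) against 7.11 and 11.0 FPKM (KO). The WT libraries were nearly equal, and both KO libraries were above them. Its log2 fold change of 0.96 (standard error 0.29, 95% confidence interval 0.22 to 1.70, unadjusted p = 0.0201 and adjusted p = 0.248 by limma) stayed under the fold limit of 1 on the log2 scale. Without KO replicate 2 it was 0.68. An exon of Traf3ip2 overlaps E130307A14Rik on the opposite strand, and since no source gives the strand setting of the counting, reads of the overlap cannot be assigned. The antisense gene E130307A14Rik had 4.60 and 2.24 FPKM (WT) against 2.69 and 2.03 FPKM (KO), so it did not share the direction of Traf3ip2.

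The 3 epithelial targets did not share a pattern. Ccl20, the ligand of CCR6 that draws Th17 cells and dendritic cells, lies on chromosome 1 from 83113341 to 83115742 with 3 exons. It had 0.779 and 0.225 FPKM (WT) against 1.83 and 1.71 FPKM (KO), or about 19.2 and 4.54 fragments against 35.7 and 30.9. The groups did not overlap, and Ccl20 passed the limit on low values through the KO libraries alone. Its log2 fold change was 0.91 (standard error 0.29, 95% confidence interval 0.18 to 1.64, unadjusted p = 0.0242 and adjusted p = 0.254 by limma), and 0.94 without KO replicate 2. As for the other low genes this value depends on the pseudocount, and with 0.1 in place of 1 it was 1.80.

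Lcn2 encodes lipocalin 2, which withholds iron from bacteria by binding their siderophores. It lies on the minus strand of chromosome 2 from 32240157 to 32243259 with 5 exons, and it was the highest of the 10 genes in every library except KO replicate 2, where Il17rc was higher. It had 121 and 1058 FPKM (WT) against 139 and 36.9 FPKM (KO). WT replicate 2 was 8.72 times WT replicate 1, and KO replicate 1 lay above WT replicate 1, so the groups overlapped. Its log2 fold change of -2.30 had a standard error of 1.16 and a 95% confidence interval of -5.27 to 0.66 (adjusted p = 0.357 by limma), an interval that covers both directions. The value turned on single libraries. Leaving out WT replicate 2 gave a log2 fold change of -0.75 and leaving out KO replicate 2 gave -1.36, neither of which was called. Leaving out WT replicate 1 gave -3.86 (unadjusted p = 0.00975, adjusted p = 0.471 by limma) and leaving out KO replicate 1 gave -3.25 (unadjusted p = 0.0124, adjusted p = 0.0662 by limma), and Lcn2 then passed the unadjusted threshold.

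Csf3, the gene of the neutrophil growth factor G-CSF, lies on chromosome 11 from 98562627 to 98564943 with 5 exons. It had 0.994 and 2.38 FPKM in WT skin, about 24.4 and 47.8 fragments, and 0.0599 and 0 FPKM in KO skin, about 1.16 and 0 fragments. The KO libraries were both under the level that 3 fragments would give, and the groups did not overlap. It missed the limit on low values, because only WT replicate 2 was above 1 FPKM. The difference on the log2(FPKM + 1) scale was -1.33 (exact two-sided permutation test, p = 0.333, the smallest possible). When all genes were tested with no limit on low values, Csf3 had an unadjusted p of 0.00896 and an adjusted p of 0.375 by limma. The study itself described IL-17 pathway genes as lower in KO skin from these same libraries. The lower KO values of Csf3, and the lower KO mean of Lcn2, whose groups overlapped, are thus not independent evidence of a direction.

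**Figure D2:**
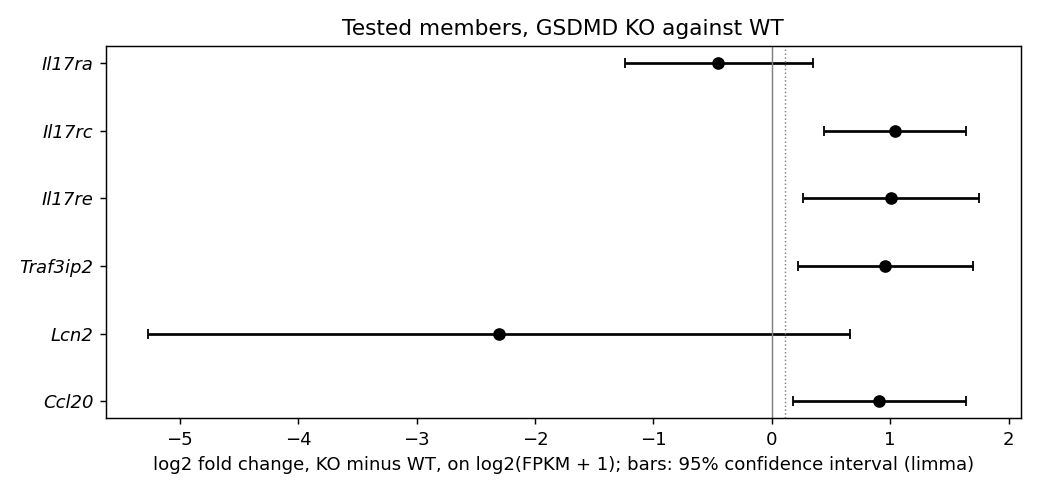
Log2 fold change of the 6 tested genes, KO minus WT, on the log2(FPKM + 1) scale (horizontal axis); points are estimates, bars are 95% confidence intervals from limma, and the dotted line is the median of all tested genes. The intervals of Il17rc, Il17re, Traf3ip2 and Ccl20 lie above 0, and those of Il17ra and Lcn2 cover 0, with Lcn2 spanning -5.27 to 0.66.

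No gene of the 10 was called at an adjusted p under 0.05. The threshold of the study combines an adjusted p under 0.05 with a log2 fold change beyond 1 in either direction. At this threshold limma called 0 of the 6 tested genes and 0% of all 13027 tested genes, where the smallest adjusted p was 0.190. Gsdmd, the targeted gene, was not called either (log2 fold change -2.14, unadjusted p = 0.000692 and adjusted p = 0.248 by limma). The absence of calls is therefore not evidence that the genes did not differ. When the p was left unadjusted and the fold limit kept, 2 of the 6 tested genes, Il17rc and Il17re, were called higher, beside 6.16% of all genes, and 0 were called lower, beside 4.14%. With any fold change, Traf3ip2 and Ccl20 joined them, making 4 higher beside 10.9% of all genes and 0 lower beside 6.22%. These counts depend on the limit on low values, which kept Ccl20 through its KO libraries and left out Csf3, the gene that was lower in KO skin. Without Ccl20, 3 of 5 were higher with any fold change. Of the 6, the number higher with any fold change was 2 without WT replicate 1, beside 6.94% of all genes, 0 without WT replicate 2, beside 2.16%, and 2 without KO replicate 2, beside 8.67%, and Traf3ip2 was in none of these counts. It was 4, with Traf3ip2, when KO replicate 1 was left out, beside 16.5%. In 4 of the 6 tested genes both KO libraries lay above both WT libraries, which was so for 35.3% of all tested genes. The reverse held for 0 of the 6, beside 20.5% of all genes. With median-ratio or upper-quartile scaling Il17rc (0.92 with each) and Il17re (0.90 and 0.91) stayed under the fold limit and 0 of the 6 were called higher. Median-ratio scaling also turned the split over all genes from 802 higher and 539 lower to 630 higher and 707 lower. The count was also 0 without WT replicate 2 and 1 (Il17rc) without KO replicate 2, and without WT replicate 1 it was 2 with Ccl20 (1.18) in place of Il17re (0.86), while without KO replicate 1 Il17re and Traf3ip2 had adjusted p = 0.0414 and 0.0381 by limma. In that setting 2058 of the 13027 genes passed the threshold of the study, and the KO group was KO replicate 2 alone, the library with Y-linked reads and the lowest macrophage, endothelial and adipocyte markers. The median log2 fold change was 0.93 over the 6 genes and 0.11 over all tested genes, and with the limit on low values lifted it was 0.12 over all 10 genes and 0.02 over all genes.

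The order of the 10 genes by level per length differed between the groups. In WT skin Lcn2 was the highest, followed by Il17rc, Il17ra, Traf3ip2, Il17re and Csf3, and the ranges of neighbours in this order did not overlap. Below them Il17rd and Ccl20 overlapped, as did Il17f and Il17a. In KO skin Lcn2 and Il17rc overlapped at the top, Traf3ip2, Il17re and Il17ra overlapped each with the next, and Ccl20 and Il17rd followed with separate ranges. Csf3, at rank 6 in both WT libraries, was at ranks 9 and 10 in KO replicates 1 and 2.

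IL-17RC and IL-17RE are both found on epithelial cells, and keratinocyte markers differed between the groups in the same direction as these genes. Of the 14 keratinocyte markers tested, 10 were called higher at an unadjusted p under 0.05 and a log2 fold change above 1, beside 6.16% of all genes, 0 were called lower, and none was at 0 in any library. The count was 7 without WT replicate 1 and 6 without WT replicate 2. The 4 others, Krt1, Krt10, Lor and Ivl, belong to the differentiated layers of the epidermis and overlapped between the groups. The summed level was at 5518 and 3891 FPKM (WT) against 11826 and 7005 FPKM (KO). Krt14, a keratin of basal keratinocytes, had 1293 and 1215 FPKM (WT) against 2689 and 2735 FPKM (KO). Per 1000 FPKM of Krt14, Il17rc was at 20.1 and 17.7 FPKM (WT) against 18.2 and 18.4 FPKM (KO), so the groups overlapped on this scale. Il17re was at 2.28 and 3.14 against 2.38 and 3.43 FPKM per 1000 FPKM of Krt14, and Traf3ip2 at 3.13 and 3.35 against 2.65 and 4.01, again with overlap. Il17ra, on the same scale, was at 5.18 and 8.62 in WT and 2.54 and 1.86 in KO skin, with both KO libraries below.

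Measured instead against the mean log2 level of all 14 keratinocyte markers, Il17rc differed by -0.15, Il17re by -0.18, Traf3ip2 by -0.22 and Ccl20 by -0.28 on the log2 scale, so all 4 changed sign. The groups overlapped on this scale for Il17rc, Il17re and Traf3ip2, so their negative signs do not give a direction. Il17ra differed by -1.63 and Lcn2 by -3.49. These scales were chosen after the values were seen and carry no test across genes. Some markers of the skin appendages were also called higher in KO skin. Of 9 sebaceous gland markers 5 were called higher, beside 6.16% of all genes, and 8 were highest in KO replicate 2, with sums of 777 and 2101 FPKM (WT) against 871 and 2746 FPKM (KO) that overlapped between the groups. The 15 hair follicle markers summed to 13.0 and 3.18 FPKM (WT) against 382 and 27.2 FPKM (KO). The sebaceous count was 4 to 7 with 1 library left out. No count is given for the hair follicle markers, since 3 of the 5 called, Krt28, Krt35 and Krt85, passed the limit on low values through the KO libraries alone. Il17re and Traf3ip2 were highest in KO replicate 2, as were 8 of the 9 sebaceous and 7 of the 14 keratinocyte markers. The part of these cell types in the values of the 10 genes was not tested.

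**Figure D3:**
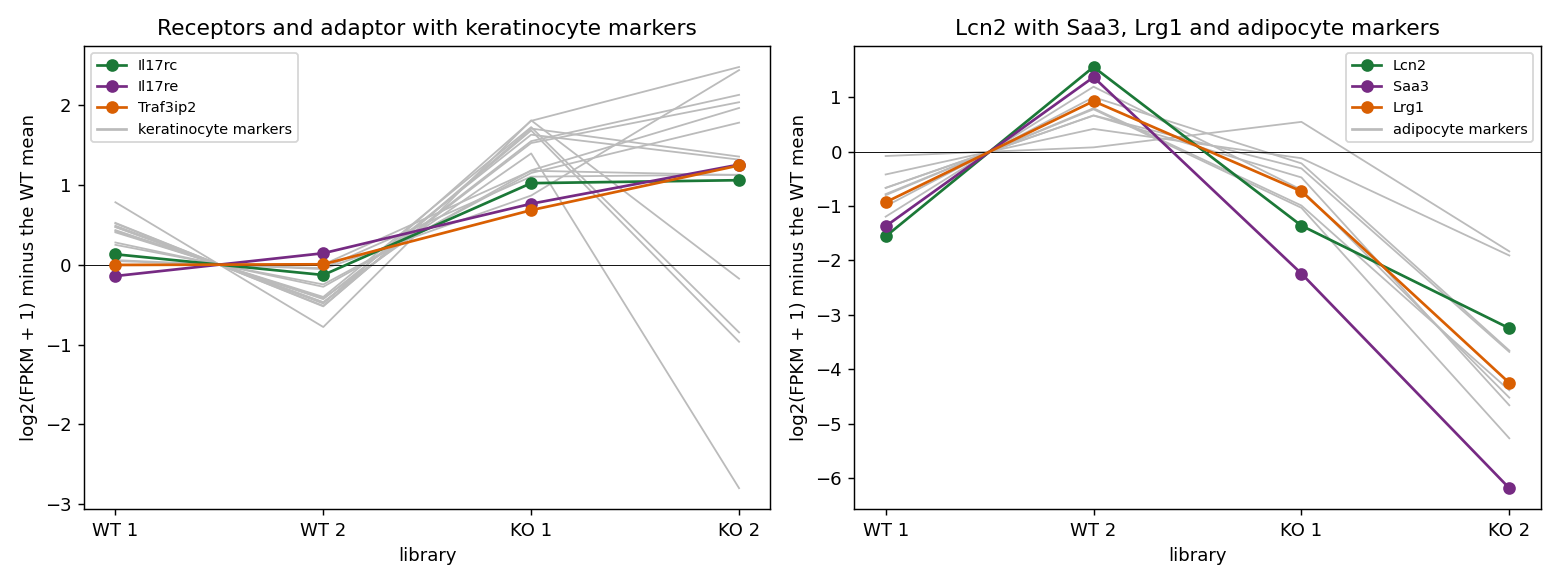
Log2(FPKM + 1) minus the mean of the WT libraries (vertical axes, which differ in range) in the 4 libraries; lines only link the points of 1 gene. At left Il17rc, Il17re and Traf3ip2 are above 0 in both KO libraries, as are 10 of the 14 keratinocyte markers (grey). At right Lcn2, Saa3 and Lrg1 share the peak in WT replicate 2 and the low in KO replicate 2 with 7 of 8 and with all 8 adipocyte markers (grey), respectively.

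Lcn2 shared the order of its 4 libraries with the summed markers of adipocytes and endothelial cells. Adipocyte markers, summed, were at 3907 and 10268 FPKM (WT) against 4581 and 376 FPKM (KO), with 7 of 8 highest in WT replicate 2 and 8 of 8 lowest in KO replicate 2, as Lcn2 was. Endothelial markers summed to 132 and 207 FPKM (WT) against 176 and 25.4 FPKM (KO). Macrophage and neutrophil markers had another order, with WT replicate 1 above KO replicate 1. Macrophage markers were at 2760 and 2843 FPKM (WT) against 1081 and 124 FPKM (KO), and 9 of 15 were called lower at the unadjusted threshold, beside 4.14% of all genes. That count was 3 without WT replicate 1, 1 without WT replicate 2 and 14 without KO replicate 1. Markers of neutrophils, cells that store lipocalin 2 in granules, summed to 15.5 and 25.4 FPKM (WT) against 10.9 and 4.77 FPKM (KO), with 3 of 4 tested called lower (0 without WT replicate 2) and the defining markers Ly6g and Mpo at 0 in at least 1 library. Of all 11 neutrophil markers, tested or not, 6 had both KO libraries below both WT libraries. Among the untested ones, Camp, Ngp, Ltf and Elane overlapped between the groups, and the mean of Camp, Ltf and Elane was higher in KO skin. These were low genes, with the highest value, 2.51 FPKM, for Camp in KO replicate 1. Saa3, an acute phase gene, had 687 and 4598 FPKM (WT) against 375 and 23.4 FPKM (KO). Lrg1 had 111 and 406 FPKM (WT) against 128 and 10.2 FPKM (KO). The part of these cell types in the values of Lcn2 and Csf3 was not tested.

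The wider group of IL-17-inducible epithelial genes held calls in both directions. Of the 22 tested, both KO libraries lay above both WT libraries in 3, beside 35.3% of all genes, and below them in 6, beside 20.5%. Ccl20 was among the 3 and Cxcl5 and Ptgs2 among the 6, and each of these passed the limit on low values only through the group where it was high. Of 32 listed genes 29 were matched and 22 tested, and 2 were called higher, beside 6.16% of all genes, and 5 lower, beside 4.14%, at the unadjusted threshold, and the median log2 fold change was -0.90 beside 0.11 for all genes. Leaving out KO replicate 2 brought this median to -0.51, and leaving out KO replicate 1 to -1.50. The numbers called were 0 higher and 2 lower without WT replicate 2, beside 2.04% and 1.86% of all genes, and 4 and 6 without KO replicate 2, beside 5.63% and 2.56%. They were 4 and 7 without WT replicate 1, beside 6.82% and 3.29%, and 1 and 12 without KO replicate 1, beside 10.8% and 12.3%. None passed at an adjusted p under 0.05. The 5 lower genes were the neutrophil chemokines Cxcl2 and Cxcl5, the calgranulins S100a8 and S100a9, and the acute phase gene Saa3. The study named CXCL2 as lower from these same libraries, so its direction is not independent evidence. Of the macrophage and neutrophil markers, 9 of 15 and 3 of 4 tested were called lower too, and their part in these values was not tested. Cxcl2 had 38.8 and 46.6 FPKM (WT) against 2.09 and 3.63 FPKM (KO), a log2 fold change of -3.52 (SE 0.30, limma adjusted p = 0.190). S100a9, a calgranulin subunit, had 312 and 322 FPKM against 153 and 41.0 FPKM, and its partner S100a8 had 440.5 and 287 FPKM against 151 and 107 FPKM, with log2 fold changes of -1.98 and -1.48. For Saa3 the log2 fold change was -4.21 with a standard error of 1.52, and for Cxcl5, another neutrophil chemokine, it was -1.20 with 0.32. Cxcl5, at 1.75 and 3.16 FPKM (WT) against 0.663 and 0.307 FPKM (KO), was tested through its WT libraries alone, and without it 4 genes were called lower. Without KO replicate 2 the log2 fold changes were -3.82 for Cxcl2, -1.05 for S100a9, -1.23 for S100a8, -2.24 for Saa3 and -1.02 for Cxcl5, and all 5 were still called. Without WT replicate 2 Cxcl2 and S100a8 were still called, while Cxcl5 was at -0.90, S100a9 at -1.96 and Saa3 at -2.84 and were not, and S100a9 was not called without WT replicate 1 either (-2.01).

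The 2 higher genes are known from keratinocytes. Defb14, a beta-defensin, had 58.6 and 13.9 FPKM (WT) against 89.5 and 158 FPKM (KO), a log2 fold change of 2.01 (SE 0.71, limma adjusted p = 0.272). Krt17, a stress keratin of epidermis and hair follicle, had 360.3 and 201 FPKM (WT) against 953 and 529.8 FPKM (KO), a log2 fold change of 1.40 (SE 0.44, limma adjusted p = 0.254). Defb14 was at 1.60 and no longer called without KO replicate 2, and Krt17 was at 1.82. Without WT replicate 2 neither was called, at 1.01 and 0.98, and without KO replicate 1 Krt17 was at 0.97 and was not called. Neither overlapped between the groups, and both had the direction of the keratinocyte markers, whose part in these values was not tested. Related members of the list overlapped between the groups, among them the beta-defensin Defb3 (log2 fold change -0.91), the keratins Krt6a (1.20), Krt6b (-1.04) and Krt16 (0.08), and the chemokine Cxcl1 (-0.89). These values turned on single libraries. Leaving out KO replicate 2 brought Krt6b to 0.65 and Defb3 to -0.10, while Krt6a at 1.66, Krt16 at 1.21 and Cxcl1 at -1.38 were then called. Leaving out KO replicate 1 brought Krt16 to -1.05, while Krt6b at -2.72 and Defb3 at -1.73 were then called lower. Krt6a, at 2.15, was called without WT replicate 1. Besides the called genes, the groups did not overlap for Ccl20 and for Ptgs2, the inducible cyclooxygenase, which had 1.41 and 1.05 FPKM (WT) against 0.394 and 0.255 FPKM (KO), a log2 fold change of -0.75. Ptgs2 was tested through its WT libraries alone.

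**Figure D4:**
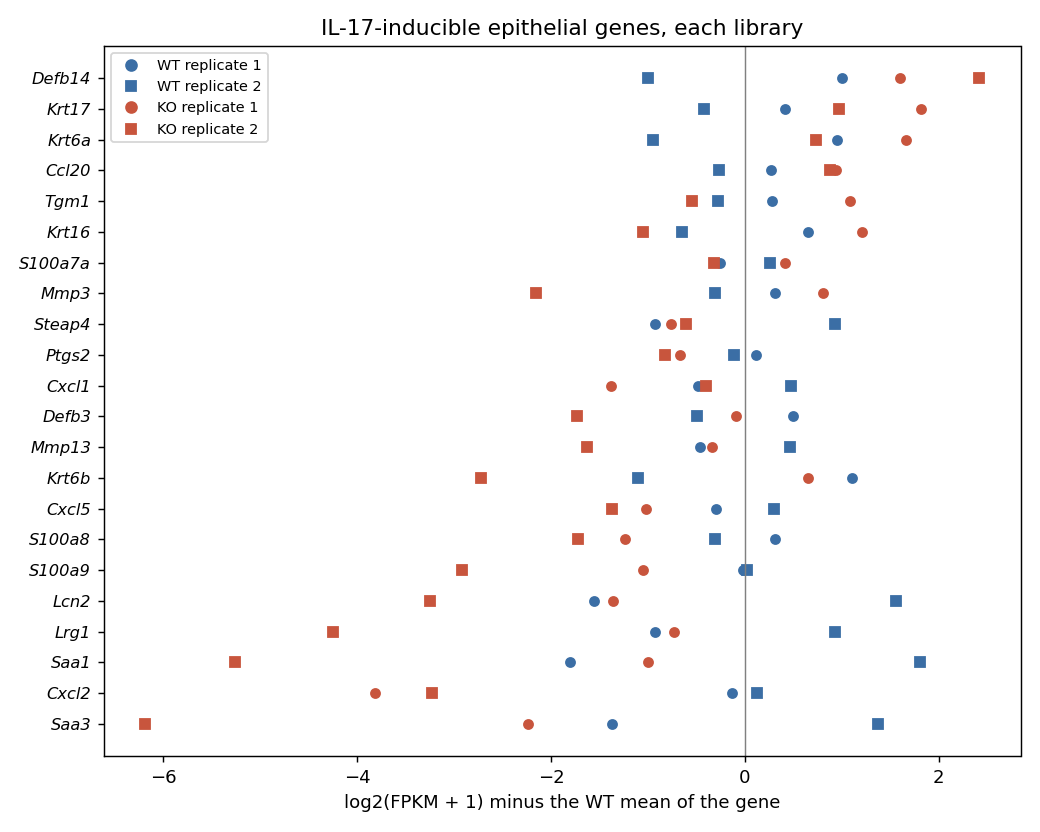
The 22 tested IL-17-inducible epithelial genes, ordered by their mean difference; the horizontal axis is log2(FPKM + 1) minus the mean of the WT libraries of the gene, WT libraries are blue, KO libraries red, circles are replicate 1 and squares replicate 2. Both KO points lie right of both WT points for Defb14, Krt17 and Ccl20, and both lie left of them for 6 genes, including Cxcl2, S100a8, S100a9 and Saa3.

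Downstream of the adaptor, the 24 genes of IL-17 signal transduction were all tested and had a median log2 fold change of 0.17, with 1 called higher and 1 lower at the unadjusted threshold. That is 4.17% in each direction, near the shares over all genes of 6.16% and 4.14%. The median was 0.14 without KO replicate 2. Nfkbiz, which encodes I kappa B zeta and is needed for many IL-17 responses in keratinocytes, was the higher one, at 8.81 and 8.98 FPKM (WT) against 15.3 and 30.0 FPKM (KO) (log2 fold change 1.18, SE 0.37, limma adjusted p = 0.254). Fos, an AP-1 subunit, was the lower one, at 16.5 and 28.7 FPKM (WT) against 8.23 and 10.4 FPKM (KO) (log2 fold change -1.15, SE 0.34, limma adjusted p = 0.248). Leaving out KO replicate 2 brought Nfkbiz to 0.72, where it was not called, and Fos to -1.31. Nfkbiz was not called without either WT library (1.17 and 1.20), and Fos was not called without WT replicate 2 (-0.77). Of 9 feedback inhibitors 8 were tested and 0 were called in either direction, with a median of -0.13.

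Genes of the cells and cytokines upstream of IL-17 were mostly low in whole skin. Of 18 type 17 lymphocyte genes 11 were tested, with a median log2 fold change of -0.12, and 1 was called higher and 1 lower, beside 6.16% and 4.14% of all genes. The median was -0.0122 without KO replicate 2 and -0.3094 without WT replicate 2. Ahr, the aryl hydrocarbon receptor, which keratinocytes also express, was the higher one, at 3.16 and 2.44 FPKM (WT) against 5.39 and 14.0 FPKM (KO). Batf, a transcription factor of Th17 and other immune cells, was the lower one, at 5.06 and 9.63 FPKM (WT) against 2.15 and 0.773 FPKM (KO). When KO replicate 2 was left out, Ahr had a log2 fold change of 0.75 in place of 1.37 and was not called, and Batf was at -1.35 in place of -1.76. Without WT replicate 2 neither was called, at 1.23 and -1.36, and without WT replicate 1 Ahr was not (1.51). Il23r, the receptor chain that defines responsive type 17 cells, was at 0 FPKM in all libraries except KO replicate 2, with 0.0961 FPKM. T cell markers summed to 15.9 and 12.2 FPKM (WT) against 13.0 and 6.26 FPKM (KO). Of the 6 tested, 1 was called lower (16.7%, beside 4.14% of all genes) and 0 higher. Their median log2 fold change was -0.18, with 3 above 0 and 3 below, and 1 of the 6 was tested through its WT libraries alone.

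Of 10 genes of cytokines and a receptor chain that act on type 17 cells 4 were tested, and 2 (Il1b and Ebi3) were called lower, beside 4.14% of all genes, and 0 higher, with a median log2 fold change of -1.02 that was -0.54 without KO replicate 2. Il1b had 35.7 and 59.8 FPKM (WT) against 2.49 and 4.65 FPKM (KO), a log2 fold change of -3.41 (SE 0.39, limma adjusted p = 0.248). Il1b was likewise named by the study from these libraries. Ebi3 encodes a subunit of IL-27, a cytokine known to restrain Th17 cells, so its call is not that of an inducing cytokine. It had 3.84 and 6.42 FPKM (WT) against 2.03 and 0.782 FPKM (KO), a log2 fold change of -1.37 (SE 0.39, limma adjusted p = 0.248). Without KO replicate 2 Il1b was at -3.76 and still called, and Ebi3 was at -0.98 and not called. Without WT replicate 2 Il1b was at -3.05 and still called, and Ebi3 was at -1.06 and not called. Il23a, the subunit specific to IL-23, was at 0.380 and 0.171 FPKM (WT) against 0.421 and 1.17 FPKM (KO) and was not tested. Macrophage markers moved in the same direction as Il1b and Ebi3, and their part in these values was not tested.

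The receptors for the secreted targets were measured as well. Csf3r, the receptor for G-CSF and a neutrophil marker, had 3.96 and 7.18 FPKM (WT) against 1.91 and 0.150 FPKM (KO), the same direction as its ligand gene Csf3. Its log2 fold change was -1.80 (standard error 0.53, unadjusted p = 0.0185 and adjusted p = 0.248 by limma), and it was -1.13 without KO replicate 2 and -1.44, not called, without WT replicate 2. Ccr6, the receptor for CCL20, was at 0.163 and 0 FPKM (WT) against 0.275 and 0 FPKM (KO), and was not tested. Slc22a17, a receptor for lipocalin 2, had 4.29 and 5.70 FPKM (WT) against 9.05 and 7.05 FPKM (KO), without overlap, at a log2 fold change of 0.60 (SE 0.27, limma adjusted p = 0.331). Lrp2, the other lipocalin 2 receptor, was at most 0.0174 FPKM.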

How the data were processed

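RNA of skin from 2 GSDMD KO and 2 WT libraries was sequenced by the authors. The submitters' processing notes name HISAT2 version 2.0.1, StringTie version 2.0.6 and mm9, and the paper's methods describe read counting and DESeq2. The deposited table is named as counts, but 99.993% of its values above 0 are not whole, and they were read as FPKM, already divided by the authors for length and depth. Which program wrote them is not given in the sources used here, and no count model was used. Values were transformed to log2(FPKM + 1), and limma (version 3.58.1, R version 4.3.3) was run on the 13027 genes that reached 1 FPKM in 2 or more libraries. The model held genotype alone, with a mean-variance trend and Benjamini-Hochberg adjustment. Genes were called at a p under 0.05 and a log2 fold change beyond 1 in either direction.

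The fit was tested on simulated data. At the adjusted threshold it called 46 of 100 genes changed by 2 log2 units and 65 of 100 changed by 3, with 5 false calls. With no gene changed it called 0. Changes near 1 log2 unit were not simulated. Depth was estimated from the fragment steps of 2710 single-transcript genes of 2 kb or longer. Fragment numbers are approximate and cover counting error only. The 10 genes and all lists were chosen with earlier results of these data known. Named are the 10 genes, Gsdmd, the up to 3 largest non-overlapping unadjusted calls per list and direction, and ligands or receptors of the 10. Others (S100a8, Cxcl5, Lrg1, Krt6a, Krt6b, Krt16, Cxcl1, Defb3, Ptgs2, Krt28, Krt35, Krt85, Krt1, Krt10, Krt14, Lor, Ivl, Ly6g, Mpo, Camp, Ngp, Ltf, Elane, Il17b, Il17d, Il17rb, Il23r, Il23a, E130307A14Rik and the Y-linked genes) were named after their values were seen. The values of 1 gene of the type 17 lymphocyte list are not reported here. Same-numbered libraries deviated with a correlation of -0.202, and no source pairs them, so they were treated as unpaired. Alternatives were other pseudocounts, filters and scalings, no trend, blocks and leaving out each library. Figures and tables used Python version 3.11.15.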

Additional observations from a re-analysis of the deposited data

How the results depend on the processing

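With 2 libraries per group, 0 genes passed the adjusted threshold, and that count was 0 under 11 other settings. Leaving out 1 library moved it to between 0 and 2058, with 2058 genes called without KO replicate 1 and 43 without KO replicate 2, where the spread rests on the other pair and the lone library is assumed to vary like it. Without KO replicate 1 the adjusted p of Il17re was 0.0414 and that of Traf3ip2 0.0381 by limma, and over all libraries left out in turn their log2 fold changes were 0.76 to 1.25 and 0.68 to 1.24. The unadjusted counts were 266 to 1412 higher and 242 to 1605 lower genes when 1 library was left out, lowest without WT replicate 2 and highest without KO replicate 1, and 333 were lower without KO replicate 2.

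Of the 6 tested genes of the 10, 2 were called higher and 0 lower at the unadjusted threshold, beside 802 and 539 of all 13027 tested genes. The number higher was 4 of 6 with a pseudocount of 0.1 and 4 of 6 with 0.5, where 1034 and 967 of all 13027 genes were called higher. It was 4 of 8 with each library scaled to the same total, beside 1080 of 14278 genes. In each of these settings Traf3ip2 and Ccl20 passed the fold limit. The number higher was 0 of 6 with median-ratio scaling, beside 630 of 13003 genes, and 0 of 7 with upper-quartile scaling, beside 627 of 13012. Il17rc was then at 0.92 with each and Il17re at 0.90 and 0.91. Median-ratio scaling moved the median of all genes from 0.11 to 0.01. Leaving out 1 library gave 0 to 3 higher, with 0 without WT replicate 2 and 1 without KO replicate 2, and 0 to 1 lower. The number lower was 1 of 10 with no limit on low values, 1 of 7 with upper-quartile scaling and 1 of 8 with scaling to the same total, in each case Csf3. In these settings 434 of 19663, 697 of 13012 and 627 of 14278 genes were called lower. The number lower was also 1 of 6 with the replicate number as a block, beside 686 of 13027 genes. It was 1 of 6 with a crossed replicate block, chosen after seeing the data, beside 681. In both of these Lcn2 was the gene, with adjusted p = 0.304 and 0.151 by limma, and it was Lcn2 without WT replicate 1 or KO replicate 1. Neither block changed another call on the 10 genes, and the numbers are not known to pair the libraries.

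Relative to the keratinocyte markers, an alternative added after seeing the data, Il17rc was at -0.15, Il17re at -0.18, Traf3ip2 at -0.22, Ccl20 at -0.28 and Il17ra at -1.63 log2 units. The groups overlapped on this scale for Il17rc, Il17re and Traf3ip2. The median of the tested genes of the 10 was 0.12 with no limit on low values. The KO libraries were both under the WT libraries in 0 of the 6 tested genes in the main setting, beside 2668 of all 13027. The number was 1 of 10 with no limit, 1 of 6 with median-ratio scaling, 2 of 7 with upper-quartile scaling and 1 of 8 with scaling to the same total. Across the 5 other filters and scalings this held for 2623 to 3780 of all genes. With 1 library left out the number was 0 to 2 of the 6, where all genes numbered 3470 to 4814. List medians moved as follows. Feedback inhibitors were at -0.0585 with no limit, -0.23 with median-ratio and -0.23 with upper-quartile scaling, -0.0413 with scaling to the same total, and -0.2947 to -0.0659 with 1 library left out. Cytokine genes of the type 17 list were at -1.31 with a pseudocount of 0.1, -0.12 with no limit and -1.50 to -0.54 with 1 library left out. Receptors of the targets were at -1.13 with a pseudocount of 0.1 and 0.0284 with no limit. The causes of these moves were not tested, except that lifting the limit adds genes near 0.

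Il17a, Il17f and Csf3 in KO skin rest on fewer than 3 estimated fragments per library, and 2 libraries per group cannot give an exact p under 0.333.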
